A study of Mus musculus with 7 samples.

Results

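The 32 genes described here were chosen by a rule that names their symbols and uses no measured value. The choice was made with earlier results of these data known, so it was not blind to them. There are 20 glycolysis genes, from the glucose transporters Slc2a1 and Slc2a3 to the lactate exporter Slc16a3. The other 12 are genes of the hypoxia response, among them Hif1a, Egln3, Hilpda and Bnip3. All 32 were found once in each annotation of the deposited matrices, out of 27514 genes that the annotations share. They were followed in neutrophils and in monocytes/macrophages of the mouse heart after myocardial infarction, over 7 single-cell RNA-sequencing samples in which each transcript is counted once by its unique molecular identifier (UMI).

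Glycolysis splits glucose into pyruvate in the cytosol and yields ATP without oxygen, and lactate dehydrogenase then turns pyruvate into lactate, which leaves the cell through a transporter. Under low oxygen the prolyl hydroxylases encoded by Egln1 and Egln3 no longer mark the transcription factor subunit HIF-1α, encoded by Hif1a, for degradation, and the factor raises transcription of most glycolytic genes, of Egln3 itself and of genes such as Bnip3 and Hilpda. Neutrophils rely largely on glycolysis, and monocytes and macrophages raise it when activated; both enter the heart in the first days after coronary occlusion.

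All mice were C57BL6/J with no stated genetic modification. Infarction was by permanent coronary ligation, and the infarct, its border and adjacent myocardium were taken from the left ventricle, or a like part of it where there was no infarct. In the first experiment, CD45+ leukocytes came from male mice with no infarct (steady state, 5 mice) and on day 1 (5 mice), day 3 (5), day 5 (5) and day 7 (3), 1 library each, and a step before sorting lowered the number of neutrophils. In the second, CD11b+ myeloid cells of male hearts on day 1 (5 mice), day 3 (5) and day 5 (3) were marked with a hashtag antibody per day and loaded as 1 pool. In both, an antibody to CD45.2 was injected into a vein before death and cells it had reached were left out, and the tissue was digested with enzymes. The last sample was a pool of CD11b+ cells of blood and mechanically dissociated ischemic heart, with 7 hashtags, from mice aged 8 to 10 weeks with no surgery (3), sham surgery on day 1 (3) or day 3 (3), or infarction on day 1 (5) or day 3 (5). The sources used here do not tie those 7 hashtags to conditions. Mice were pooled within each time point, so the spread between mice is unknown. The first 2 experiments differ in sort, chemistry and gene annotation, and each fit takes out their difference in level with a term. The p-values below set the changes between days, or the differences between classes, against the spread left among the sums after that. Each day fit left 2 residual degrees of freedom, so the test also drew on the spread of all genes tested. That shared part weighed as 16.7 degrees of freedom in neutrophils and 3.93 in monocytes/macrophages. A gene's p-value thus rests in part on the spread of other genes.

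After filtering, the CD45+ libraries held 639, 527, 844, 945 and 1792 cells (steady state and days 1, 3, 5 and 7), the CD11b+ pool 4282 and the blood and heart pool 9999. UMIs were summed over the cells of each class, day and experiment. The neutrophil sums for days 1, 3 and 5 were built from 217, 135 and 41 cells of the CD45+ libraries and 254, 992 and 224 of the pool, and the monocyte/macrophage sums 251, 639 and 764, and 241, 1167 and 1404. The smallest, CD45+ neutrophils on day 5, rested on 107134 UMIs. The 17 neutrophil markers summed to 51789.5 to 236240 CPM (UMIs relative to the total of the sum) in the neutrophil sums of days 1, 3 and 5, and the 17 monocyte/macrophage markers to 1298 to 9727 there. In the monocyte/macrophage sums these days gave 459 to 19447 CPM of neutrophil markers and 10652 to 73668.5 of their own. The name of 1 sum went against its markers: CD45+ monocytes/macrophages of day 1 held 19447 CPM of neutrophil markers and 10652 of their own, the only 1 of the 12 sums in which the other class's markers were the higher. Most of its 251 cells lay in 1 cluster of 240 cells that no other day filled. That cluster was led by Saa3, Cxcl3, Arg1 and Csf3, with 0 of its class's markers among its 10 leading genes. That cluster was named in a second pass added after the clusters were seen, and assignment by each cell's own markers left 166 cells in the sum. Results without it are given below. Levels are given as scaled CPM, which is CPM on 1 TMM scale common to all sums, which allows comparison of a gene between sums but not of different genes.

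The promoters of the members were examined for the core letters of the hypoxia response element, ACGTG and GCGTG, on both strands. RefSeq promoter windows (GRCm38.p6, 250 bases before to 50 after a transcription start) matched 28 of the 32 members by symbol, in 40 windows, and Slc2a3, Bnip3l, Ero1l and Ndrg1 had none. The 4 windows below are shown because they stand for energy yield, lactate formation, mitophagy and oxygen sensing, and because all 4 genes fell from day 1 to day 5 in both cell classes. They lie at chrX:106186850-106187149 (plus strand), chr7:46845554-46845853 (plus strand), chr7:138909457-138909756 (minus strand) and chr12:54203825-54204124 (minus strand), and are written 5′ to 3′ in the direction of the gene, with ACGTG and GCGTG and their reverse complements in capitals.
Pgk1: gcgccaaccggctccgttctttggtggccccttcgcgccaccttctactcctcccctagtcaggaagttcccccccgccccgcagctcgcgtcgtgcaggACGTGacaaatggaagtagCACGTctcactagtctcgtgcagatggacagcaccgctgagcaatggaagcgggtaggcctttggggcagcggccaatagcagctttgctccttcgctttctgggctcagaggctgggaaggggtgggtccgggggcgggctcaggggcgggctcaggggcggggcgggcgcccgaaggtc
Ldha: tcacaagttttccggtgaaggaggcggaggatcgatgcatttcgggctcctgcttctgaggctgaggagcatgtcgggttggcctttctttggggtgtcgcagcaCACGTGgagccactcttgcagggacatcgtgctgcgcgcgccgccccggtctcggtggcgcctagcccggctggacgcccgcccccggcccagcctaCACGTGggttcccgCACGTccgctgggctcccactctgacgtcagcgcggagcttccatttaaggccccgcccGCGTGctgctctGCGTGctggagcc
Bnip3: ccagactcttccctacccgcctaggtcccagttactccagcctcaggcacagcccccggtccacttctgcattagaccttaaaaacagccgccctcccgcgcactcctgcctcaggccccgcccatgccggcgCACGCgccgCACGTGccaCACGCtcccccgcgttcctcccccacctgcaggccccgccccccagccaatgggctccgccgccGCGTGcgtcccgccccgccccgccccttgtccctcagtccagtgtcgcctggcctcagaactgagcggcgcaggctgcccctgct
Egln3: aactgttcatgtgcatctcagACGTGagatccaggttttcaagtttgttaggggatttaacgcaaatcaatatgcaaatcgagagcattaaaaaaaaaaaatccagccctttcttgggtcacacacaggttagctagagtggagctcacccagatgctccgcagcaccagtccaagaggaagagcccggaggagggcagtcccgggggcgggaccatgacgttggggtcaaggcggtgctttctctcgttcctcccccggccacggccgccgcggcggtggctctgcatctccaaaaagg
The Pgk1 window held 2 copies of ACGTG, the Ldha window, the richer of 2 for that gene, 5 with 2 of GCGTG, the Bnip3 window 2 with 3 of GCGTG, and the Egln3 window 1. The run CACGTG reads as ACGTG on both strands and was counted once for each. Over genes, ACGTG was present for 20 of 28 members (71.4%) and 21.8% of all 27025 genes with a window, GCGTG for 17 (60.7%) against 35.2%, and either for 26 (92.9%) against 46.7%. Member windows were also richer in G and C, with a median of 64.5% against 52.7% in all windows. A match is a description of these letters and not of binding.

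From day 1 to day 5 after infarction most glycolysis and hypoxia genes were lower in both cell classes, and part of them fell past the test. In neutrophils 31 members passed the filter on low counts (Adm, with 94 UMIs in all on days 1, 3 and 5, did not) and 16 of them (51.6%) fell past the threshold, an adjusted p of 0.05 in edgeR's quasi-likelihood test, while 0 rose. Of all 6184 genes tested 7.41% passed, 5.5% lower and 1.91% higher. In monocytes/macrophages 20 of 31 members (64.5%) fell and 0 rose, where 10.7% of 10680 genes passed, 6.04% lower and 4.63% higher. By list, 11 of 20 glycolysis genes and 5 of 11 hypoxia genes fell in neutrophils, with median log2 changes of -1.60 and -1.23, and 13 of 20 and 7 of 11 in monocytes/macrophages, with medians of -1.34 and -1.53. The median over all genes tested was -0.03 in each class. Fewer transcripts per cell and a larger share of other transcripts cannot be told apart in such sums.

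The direction was shared by members that did not pass. In neutrophils all 31 fitted changes from day 1 to day 5 were negative, 27 of them in both experiments taken alone, and in monocytes/macrophages 29 were, 26 in both experiments. Both day 1 sums lay above both day 5 sums for 25 of 31 members in neutrophils, where 26.0% of all genes did so, and for 24 of 31 in monocytes/macrophages, against 16.5%. When 1 sum was left out, the neutrophil count was 5 without pool day 5, 7 without pool day 1, 8 without CD45+ day 5 and 27 without CD45+ day 1, and the monocyte/macrophage count 11 without CD45+ day 5 and 13 without pool day 5. Without the term for the experiment 0 members passed in either class. With cells assigned from their own markers 17 passed in monocytes/macrophages, while neutrophils lost their CD45+ day 5 sum and kept 1 sum for that day. Leaving out the clusters of the second naming pass removed the CD45+ day 1 sum of monocytes/macrophages, so day 1 rested on the pool alone. For that class this was the same fit as leaving that sum out.

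**Figure D1:**
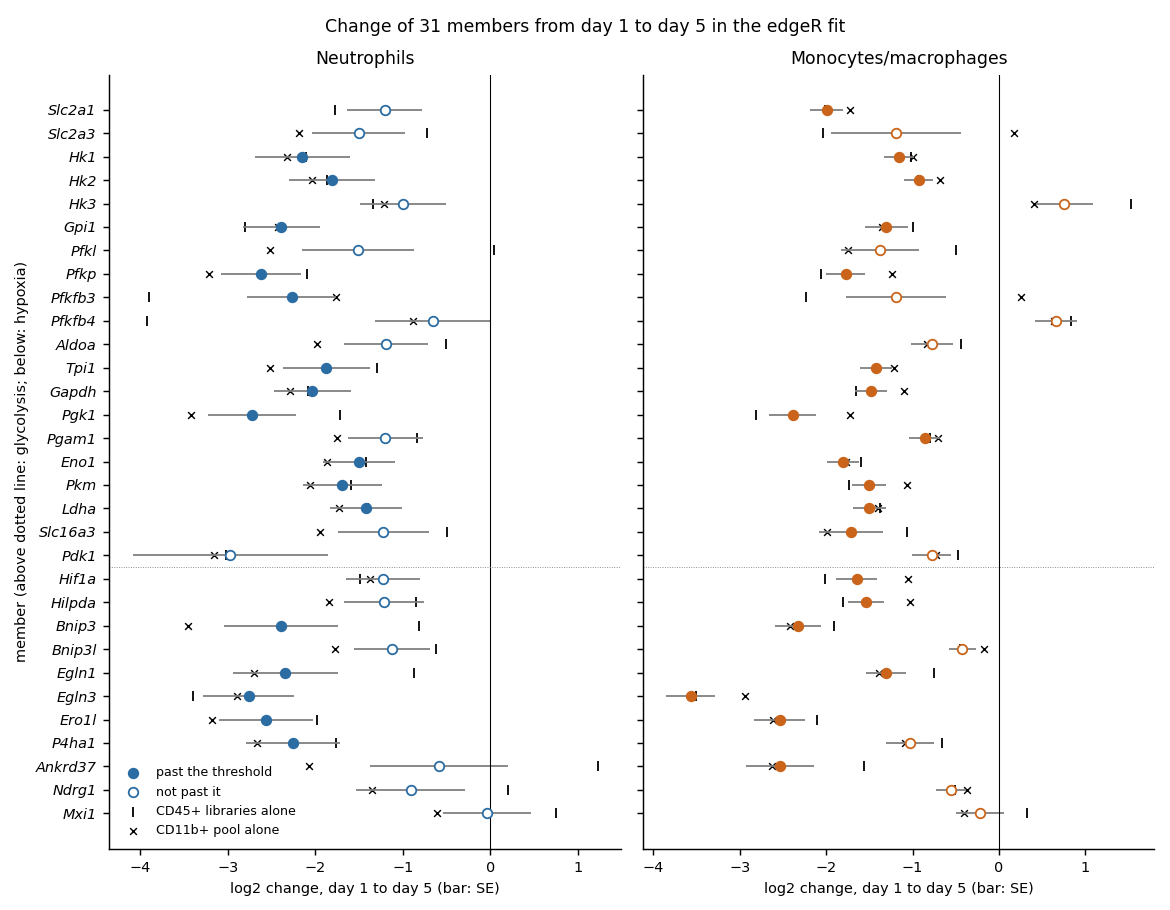
Log2 change from day 1 to day 5 (horizontal axis, edgeR fit, bars are 1 SE) of the 31 tested members in neutrophils and in monocytes/macrophages, with filled points past the adjusted threshold, ticks for the CD45+ libraries alone and crosses for the pool alone. All 31 neutrophil points and 29 of 31 monocyte/macrophage points lie below 0, and Hk3 and Pfkfb4 lie above 0 in monocytes/macrophages.

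The size of the neutrophil change depended on the scale. In the CD45+ libraries S100a8 and S100a9 alone took 17.1%, 8.44% and 5.24% of neutrophil UMIs on days 1, 3 and 5, and 7.62%, 4.06% and 5.44% in the pool. Scaling by total counts alone moved the median neutrophil change of all genes to 0.68 for the first step (day 1 to day 3) and 0.90 for day 1 to day 5, and that of monocytes/macrophages to 0.21 and 0.23. On that scale 5 members fell in neutrophils from day 1 to day 5, namely Gpi1, Pfkp, Pgk1, Egln3 and Ero1l, and 15 in monocytes/macrophages. The share of all genes that passed is not given for that scale. No member that passed changed direction with it, while Pfkfb4, Ankrd37 and Mxi1 in neutrophils and Mxi1 in monocytes/macrophages, none past the threshold, did. In the CD45+ neutrophils taken alone, 17 of 31 members were lower on day 5 than on day 1 on total counts, and 29 of 31 in the pool.

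Levels by gene are in scaled CPM and given for days 1, 3 and 5 in that order, and changes are log2 changes of the edgeR fit. Slc2a1 encodes GLUT1, the widely used glucose transporter. In neutrophils it stood at 204, 105 and 58.7 in the CD45+ libraries and 225, 79.7 and 97.9 in the CD11b+ pool. Day 1 was the highest in both experiments, and the fitted log2 change to day 5 was -1.21 (SE 0.43, adjusted p = 0.0918). In monocytes/macrophages Slc2a1 measured 179, 88.8 and 43.8 in the CD45+ libraries and 130.5, 56.3 and 38.9 in the CD11b+ pool, and it fell by 1.99 (SE 0.19, adjusted p = 0.00782) on the log2 scale. Both day 1 sums lay above the other 4 there. Slc2a3 encodes GLUT3, a transporter of high affinity. Its neutrophil levels were 73.6, 92.6 and 44.0 in the CD45+ libraries and 165, 47.7 and 35.6 in the CD11b+ pool, against 8.67, 1.67 and 1.35 in the CD45+ libraries and 1.78, 2.27 and 2.15 in the CD11b+ pool in monocytes/macrophages, where the largest of the 6 sums held 8.67. The change to day 5 was -1.51 (SE 0.53, adjusted p = 0.0906) in neutrophils and -1.19 (SE 0.75, adjusted p = 0.317) in monocytes/macrophages, in the latter -2.04 within the CD45+ libraries and 0.18 within the pool.

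**Figure D2:**
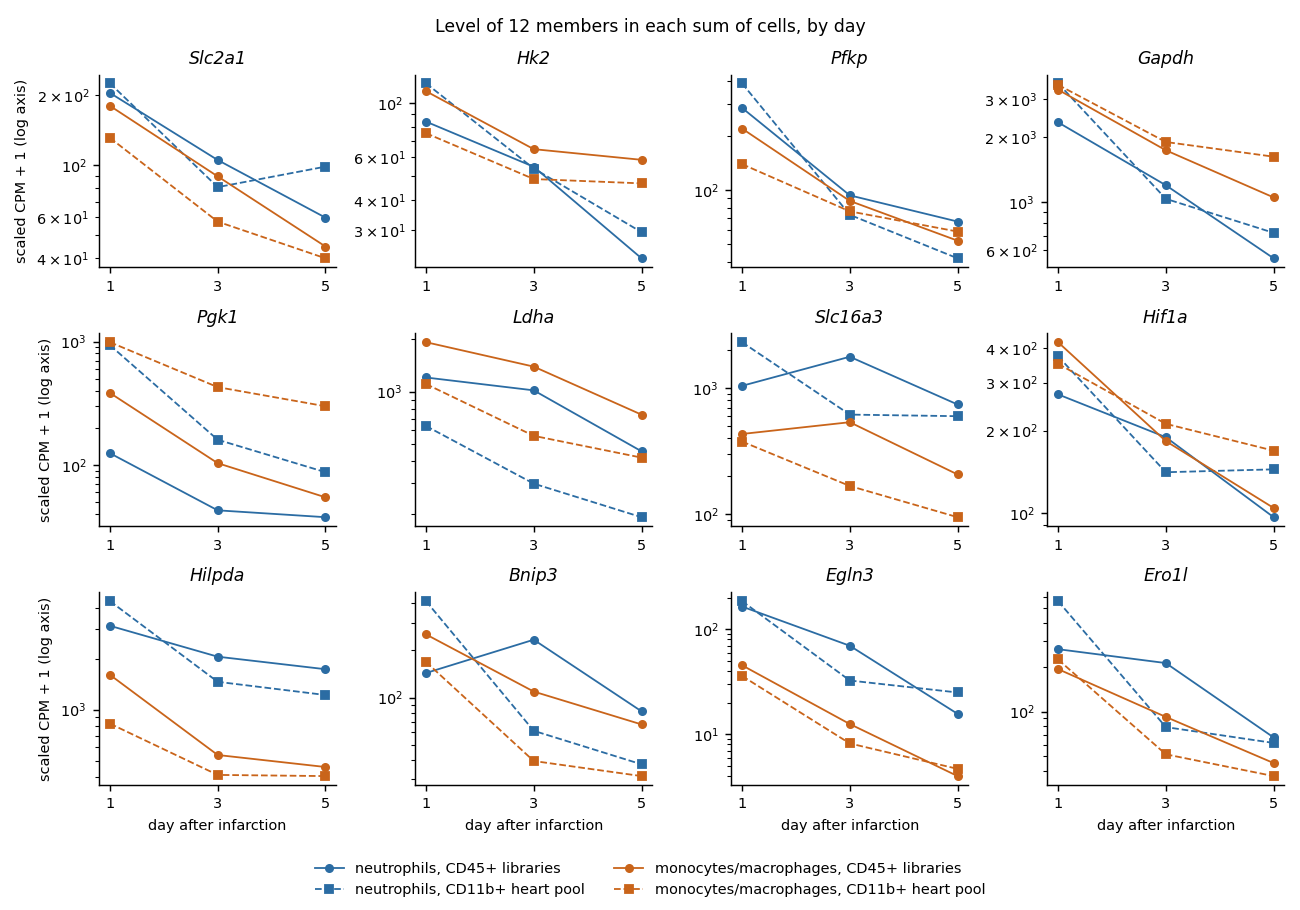
Levels of 12 members on days 1, 3 and 5 in scaled CPM plus 1 (log axis), with neutrophils in blue, monocytes/macrophages in orange, CD45+ libraries as circles with solid lines and the CD11b+ pool as squares with dashed lines, 1 sum per point. Most lines slope down from day 1, as for Gapdh in neutrophils from 2339.7 to 550.0 and from 3545 to 721, while Slc16a3 and Bnip3 peak on day 3 in CD45+ neutrophils.

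Hexokinases trap glucose in the cell. Hk2, the form induced by hypoxia, fell in both classes. Its neutrophil levels were 83.1, 53.8 and 22 in the CD45+ libraries and 119.9, 52.9 and 28.5 in the CD11b+ pool, a fitted change of -1.81 (SE 0.49, adjusted p = 0.0334), but the CD45+ day 5 value rested on 3 UMIs. In monocytes/macrophages Hk2 levels were 111, 63.7 and 57.5 in the CD45+ libraries and 74.3, 47.8 and 45.8 in the CD11b+ pool, with a change of -0.93 (SE 0.17, adjusted p = 0.0282). Hk1 passed as well, with -2.15 (SE 0.54, adjusted p = 0.0237) in neutrophils, where its CD45+ day 5 value rested on 2 UMIs, and -1.16 (SE 0.18, adjusted p = 0.0209) in monocytes/macrophages. Hk3 is a hexokinase of myeloid cells. In monocytes/macrophages it measured 18.4, 65.5 and 55.1 in the CD45+ libraries and 35.6, 55.5 and 47.6 in the CD11b+ pool, lowest on day 1 in both experiments, and the change of 0.76 (SE 0.33, adjusted p = 0.175) did not pass. In neutrophils it measured 75.9, 77.7 and 29.3 in the CD45+ libraries and 129.5, 50.1 and 55.2 in the CD11b+ pool, with -1.0 (SE 0.49, adjusted p = 0.227).

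Phosphofructokinase commits sugar to glycolysis. Its platelet-type subunit Pfkp was among the members with the smallest adjusted p in both classes. Neutrophils held 285, 92.6 and 66.0 in the CD45+ libraries and 389.9, 72.0 and 40.9 in the CD11b+ pool, and Pfkp fell by 2.07 (SE 0.42, adjusted p = 0.0127) by day 3 and fell by 2.62 (SE 0.46, adjusted p = 0.00393) by day 5. Monocytes/macrophages held 218, 86.2 and 51.5 in the CD45+ libraries and 138, 75.3 and 58.0 in the CD11b+ pool, and Pfkp fell by 1.77 (SE 0.22, adjusted p = 0.0134) by day 5. The liver-type subunit Pfkl was not past the threshold in either class (-1.51, SE 0.64, adjusted p = 0.158, and -1.38, SE 0.45, adjusted p = 0.101). Pfkfb3 makes fructose-2,6-bisphosphate, the main activator of phosphofructokinase. It stood at 233, 59.7 and 14.7 in the CD45+ libraries and 102, 40.7 and 29.4 in the CD11b+ pool in neutrophils and fell by 2.27 (SE 0.51, adjusted p = 0.0128) by day 5, with 2 UMIs behind the CD45+ day 5 value. In monocytes/macrophages it stood at 125, 32.3 and 25.8 in the CD45+ libraries and 24.6, 27.2 and 29.5 in the CD11b+ pool, so that the 2 experiments differed in direction (-2.23 within the CD45+ libraries and 0.25 within the pool), and the fit gave -1.19 (SE 0.58, adjusted p = 0.213). Its paralog Pfkfb4 had fitted changes of -0.65 (SE 0.66, adjusted p = 0.588) and 0.66 (SE 0.24, adjusted p = 0.125). Gpi1, the isomerase just upstream, measured 826, 460.0 and 117 in the CD45+ libraries and 638, 181 and 117 in the CD11b+ pool in neutrophils and fell by 2.39 (SE 0.44, adjusted p = 0.00467) by day 5, with every day 1 value above every later one. Its monocyte/macrophage levels were 486, 429 and 243 in the CD45+ libraries and 640.4, 302 and 250.5 in the CD11b+ pool, and it fell by 1.31 (SE 0.25, adjusted p = 0.0327).

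Of the 7 enzymes from aldolase to pyruvate kinase, 5 fell in neutrophils and 6 in monocytes/macrophages by day 5. Pgk1, phosphoglycerate kinase, which makes the first ATP of the pathway, stood at 123, 41.8 and 36.7 in the CD45+ libraries and 934, 159 and 86.3 in the CD11b+ pool in neutrophils. The levels of the 2 experiments were far apart, but day 1 was the highest in each, and Pgk1 fell by 2.16 (SE 0.45, adjusted p = 0.0158) by day 3 and fell by 2.73 (SE 0.51, adjusted p = 0.00467) by day 5. In monocytes/macrophages it stood at 382, 102 and 53.6 in the CD45+ libraries and 987, 426 and 298 in the CD11b+ pool and fell by 2.39 (SE 0.27, adjusted p = 0.0102). Gapdh, the dehydrogenase before it, measured 2339.7, 1198 and 550.0 in the CD45+ libraries and 3545, 1037 and 721 in the CD11b+ pool in neutrophils and fell by 2.03 (SE 0.44, adjusted p = 0.0102). Its monocyte/macrophage levels were 3312, 1738 and 1052 in the CD45+ libraries and 3487, 1898 and 1623 in the CD11b+ pool, and it fell by 1.48 (SE 0.18, adjusted p = 0.0122). All 4 Gapdh series declined at each step.

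Eno1, enolase, measured 2406, 1449 and 792 in the CD45+ libraries and 944, 397 and 276 in the CD11b+ pool in monocytes/macrophages and fell by 1.80 (SE 0.19, adjusted p = 0.00963) there by day 5, and its neutrophil levels of 1478, 881 and 550.0 in the CD45+ libraries and 725, 239 and 198 in the CD11b+ pool gave -1.50 (SE 0.41, adjusted p = 0.0346). The last 300 bases of Gapdh transcripts matched 120 other genes of the annotation at 95% identity or more and those of Eno1 matched 1, Eno1b, so the counts of both may be shared with copies. Pkm, pyruvate kinase, stood at 2883, 2258 and 953 in the CD45+ libraries and 2491, 783 and 596 in the CD11b+ pool in neutrophils, with -1.69 (SE 0.45, adjusted p = 0.0318). In monocytes/macrophages it stood at 3961, 2106 and 1190.0 in the CD45+ libraries and 1703, 992 and 814 in the CD11b+ pool, with -1.50 (SE 0.19, adjusted p = 0.0139). Tpi1, triosephosphate isomerase, also fell in both classes (-1.87, SE 0.50, adjusted p = 0.0299, and -1.42, SE 0.19, adjusted p = 0.014), and Pgam1 in monocytes/macrophages (-0.86, SE 0.18, adjusted p = 0.0406). Aldoa passed in neither, with -1.20 (SE 0.48, adjusted p = 0.135) and -0.77 (SE 0.24, adjusted p = 0.0947).

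The end of the pathway makes and exports lactate. Ldha, the lactate dehydrogenase subunit that favours lactate formation, measured 1203, 1015 and 455 in the CD45+ libraries and 635, 297 and 190.4 in the CD11b+ pool in neutrophils, a change of -1.42 (SE 0.41, adjusted p = 0.0428), and 1915, 1388 and 737 in the CD45+ libraries and 1104, 558 and 418 in the CD11b+ pool in monocytes/macrophages, a change of -1.50 (SE 0.19, adjusted p = 0.0138). On the TMM scale each of these 4 series declined from day 1 through day 5. The TMM factors of CD45+ neutrophils were 0.483, 0.792 and 1.28 on these days. On plain CPM, Ldha in CD45+ neutrophils was higher on day 3 than on day 1. Slc16a3, the exporter MCT4, peaked on day 3 in the CD45+ libraries of both classes and on day 1 in the pool. Its neutrophil levels were 1042, 1774 and 741 in the CD45+ libraries and 2316, 615 and 598 in the CD11b+ pool, and the fitted change of -1.22 (SE 0.52, adjusted p = 0.164) did not pass. Monocytes/macrophages held 432, 535 and 205 in the CD45+ libraries and 376, 166 and 93.5 in the CD11b+ pool, and there it fell by 1.71 (SE 0.37, adjusted p = 0.041). Pdk1, the kinase that keeps pyruvate out of mitochondria, was sparse in neutrophils, with 0 UMIs in the CD45+ day 5 sum, and passed in neither class.

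Among the genes of oxygen sensing, Egln3 changed most. It encodes a prolyl hydroxylase that is itself a HIF target. Egln3 stood at 164, 68.7 and 14.7 in the CD45+ libraries and 185, 31.5 and 24.0 in the CD11b+ pool in neutrophils, fell by 1.95 (SE 0.46, adjusted p = 0.0288) by day 3 and fell by 2.76 (SE 0.52, adjusted p = 0.00467) by day 5. In monocytes/macrophages it stood at 44.5, 11.5 and 3.00 in the CD45+ libraries and 35.0, 7.19 and 3.69 in the CD11b+ pool and fell by 3.57 (SE 0.28, adjusted p = 0.00627), an 11.9-fold lower level and the largest change of any member in this comparison. The CD45+ day 5 value in neutrophils rested on 2 UMIs. Egln1, the main hydroxylase, fell in both classes too (-2.35, SE 0.60, adjusted p = 0.0267, and -1.31, SE 0.23, adjusted p = 0.0271), with 1 UMI in the CD45+ day 5 neutrophils. Hif1a measured 421, 182 and 103 in the CD45+ libraries and 350.5, 211 and 168 in the CD11b+ pool in monocytes/macrophages and fell by 1.65 (SE 0.24, adjusted p = 0.0178). Its neutrophil levels were 271, 188 and 95.3 in the CD45+ libraries and 373, 139.8 and 143 in the CD11b+ pool, with a change of -1.23 (SE 0.42, adjusted p = 0.0811).

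Other targets of the hypoxia response come next. Bnip3, a mitochondrial receptor for mitophagy, measured 142, 233 and 80.7 in the CD45+ libraries and 412, 60.3 and 36.5 in the CD11b+ pool in neutrophils, with -2.39 (SE 0.65, adjusted p = 0.0334), and 252, 108 and 66.4 in the CD45+ libraries and 168, 38.3 and 30.5 in the CD11b+ pool in monocytes/macrophages, where it fell by 2.33 (SE 0.27, adjusted p = 0.0108). Its relative Bnip3l passed in neither class (-1.13, SE 0.44, adjusted p = 0.124, and -0.42, SE 0.16, adjusted p = 0.133). Ero1l, an oxidase for disulfide bonds in the endoplasmic reticulum, stood at 263, 212 and 66.0 in the CD45+ libraries and 558, 77.7 and 60.5 in the CD11b+ pool in neutrophils and fell by 2.56 (SE 0.54, adjusted p = 0.00952). Its monocyte/macrophage levels were 193, 91.2 and 44.0 in the CD45+ libraries and 224, 50.5 and 35.7 in the CD11b+ pool, and it fell by 2.54 (SE 0.30, adjusted p = 0.0112). On the TMM scale both day 1 sums of Ero1l were above all later ones in each class. On plain CPM, Ero1l in CD45+ neutrophils was higher on day 3 than on day 1.

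Hilpda, a lipid droplet protein that slows lipolysis, supplied most of the UMIs of the hypoxia list in neutrophils. Its levels there were 3123, 2052 and 1731 in the CD45+ libraries and 4369, 1459 and 1219 in the CD11b+ pool, and the change to day 5 was -1.21 (SE 0.45, adjusted p = 0.108). In monocytes/macrophages Hilpda measured 1604, 539 and 458 in the CD45+ libraries and 826, 411 and 405 in the CD11b+ pool and fell by 1.53 (SE 0.21, adjusted p = 0.0153). P4ha1, a collagen prolyl hydroxylase subunit, stood at 52.2, 38.8 and 14.7 in the CD45+ libraries and 164, 53.1 and 24.9 in the CD11b+ pool in neutrophils, the CD45+ day 5 value from 2 UMIs, and fell by 2.26 (SE 0.54, adjusted p = 0.018), and gave -1.03 (SE 0.28, adjusted p = 0.0674) in monocytes/macrophages. Ankrd37 passed in monocytes/macrophages alone (-2.54, SE 0.39, adjusted p = 0.021, against -0.59, SE 0.79, adjusted p = 0.695 in neutrophils). Ndrg1 and Mxi1, an antagonist of Myc, passed in neither. Adm, which encodes the vasodilator adrenomedullin, had 1 UMI in neutrophils of the CD45+ libraries and 24 in those of the pool, all of day 3. These were too few to pass the filter on low counts within the class.

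The early and the late step of the decline differed in what could be called. From day 1 to day 3, Pfkp, Pgk1 and Egln3 fell in neutrophils, 3 of 31 members, where 2.46% of all genes passed, 1.91% lower and 0.55% higher, and 23 passed without the CD45+ day 1 sum and 0 without the pool day 3 sum. In monocytes/macrophages 0 of 31 members passed over those days, with 22 at an unadjusted p under 0.05 and medians of -0.82 for glycolysis and -1.08 for hypoxia genes. Of all genes, 0.0375% passed there in edgeR's test. DESeq2 called 17 members, but the share of all genes that it called is not given here. Over the second step, day 3 to day 5, 0 members passed in either class in edgeR's test, with 1 and 12 at an unadjusted p under 0.05 in neutrophils and monocytes/macrophages, and DESeq2 called 0 and 1, while 13 passed in monocytes/macrophages without the CD45+ day 1 sum and 8 without the pool day 1 sum. Shares of all genes are given for edgeR's full fit at the adjusted threshold alone, so the other counts here describe the members only. From day 3 to day 5 that share was 0.0% and 0.0187%. Medians were then -0.65 and -0.59 for the 2 lists in neutrophils and -0.51 and -0.54 in monocytes/macrophages.

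A list of 53 further genes of the same pathways, among them Vegfa, Plin2 and Pdk3, was counted beside the members. From day 1 to day 5, 6 of the 25 tested fell in neutrophils and 0 rose (median -0.77), namely Plin2, Pgm2, Higd1a, Bhlhe40, Mif and Pygl. On total counts 1 of these 25 fell and 2 rose, 15 fitted changes were positive and the median was 0.09, so the direction of this list in neutrophils turned with the scale. In monocytes/macrophages 13 of 40 fell and 0 rose (median -0.65), and on total counts 8 fell and 0 rose (median -0.40). Vegfa, the angiogenic growth factor, changed there by -1.02 (SE 0.22, adjusted p = 0.0434), and Ddit4, an inhibitor of mTOR signalling, by -2.72 (SE 0.30, adjusted p = 0.0101). Plin2, which coats lipid droplets, fell in neutrophils by 2.45 (SE 0.46, adjusted p = 0.00467).

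Different clusters filled each class on different days, so levels were also read within clusters built without the members, as plain CPM summed over a list. In the pool, the neutrophil cluster led by Retnlg and S100a9 had glycolysis sums of 10215, 5732 and 5188 on days 1, 3 and 5 and hypoxia sums of 4550.0, 1667 and 1206. The other neutrophil cluster, led by Tnf and Icam1, had 7869, 4451 and 4087 and 4113, 2342 and 2607. Both clusters were highest on day 1 for both lists. In the monocyte/macrophage cluster led by Plac8 and Chil3 the glycolysis sums were 11659, 7894 and 6808 and the hypoxia sums 1905, 1225 and 1272, and in the one led by Arg1 and Ccl24 they were 16606, 11104 and 9596 and 3083, 2321 and 2094. The CD45+ neutrophils could not be read this way, because nearly all day 1 cells lay in the cluster led by Ngp and Retnlg (6028 and 2114) and those of days 3 and 5 in the cluster led by G0s2 and Il1r2 (8187 and 2362 on day 3, 5908 and 2949.6 on day 5). On plain CPM, then, the day 1 sum of CD45+ neutrophils was not the highest for either list. In CD45+ monocytes/macrophages the day 1 cells formed a cluster of their own (12896 and 2308), and the Plac8-led cluster went from 10181 to 8120.4 and 6829.9 for glycolysis on days 3, 5 and 7.

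Markers of the other class moved with the days. Summed neutrophil markers in monocytes/macrophages were 19447, 1893 and 459 CPM on days 1, 3 and 5 in the CD45+ libraries and 2333, 822 and 684 in the pool, with at most 2 of 17 at 0. Summed monocyte/macrophage markers in neutrophils were 1298, 6699.5 and 9727 CPM in the CD45+ libraries and 2974, 3132 and 3465 in the pool, with at most 1 of 17 at 0. Their part in the changes was not tested.

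The classes were also compared with each other over days 1 to 5. Over the 12 sums, with library as a block, 11 of 31 members were higher in neutrophils and 9 lower, where 56.9% of 8568 genes passed, 23.6% higher and 33.3% lower. Of the glycolysis genes 5 of 20 were higher (25%) and 7 lower (35%), shares close to those of all genes, with a median of -0.14. Of the hypoxia genes 6 of 11 were higher (54.5%) and 2 lower (18.2%), with a median of 0.60, against -0.20 over all genes. On total counts 3 glycolysis genes were higher and 10 lower (median -0.51), 4 hypoxia genes higher and 3 lower (median 0.25), and the median of all genes was -0.57. The sign of each member's fitted difference was the same on that scale, and without the block 8 members passed.

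**Figure D3:**
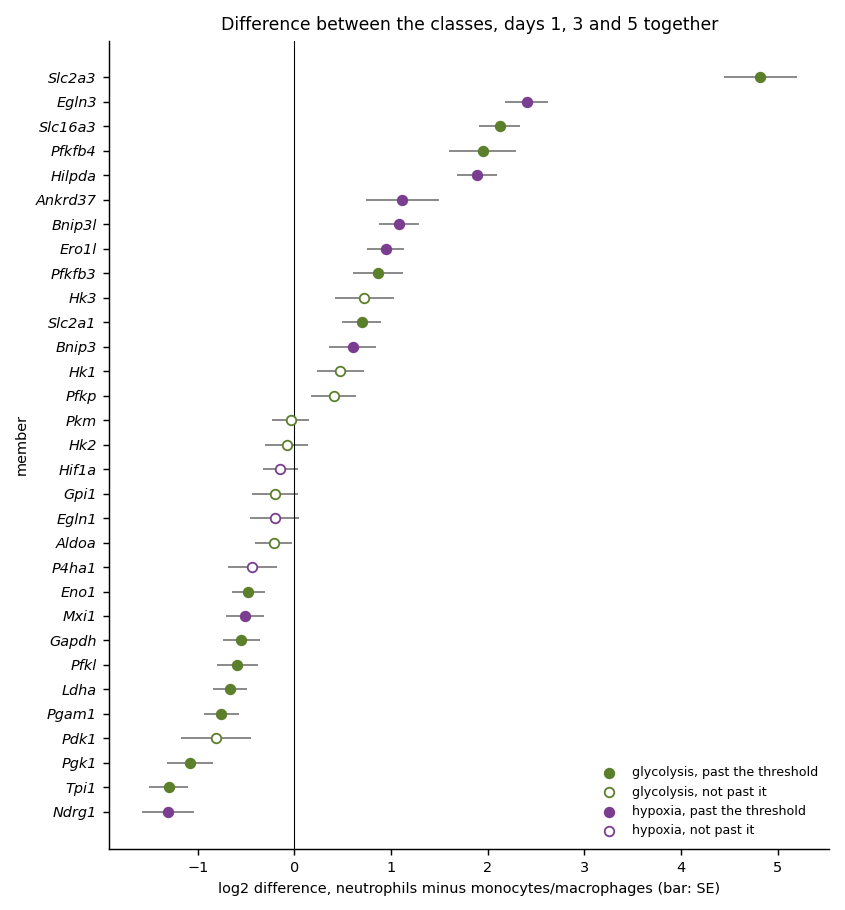
Log2 difference of neutrophils from monocytes/macrophages (horizontal axis, bars are 1 SE) for the 31 tested members, filled where past the adjusted threshold. Slc2a3 stands farthest to the right at 4.82, and Ndrg1 and Tpi1 stand farthest to the left at -1.31 and -1.30.

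The glucose and lactate transporters among the members were higher in neutrophils. Transporters outside the list went both ways past the threshold, with log2 differences of 2.68 (SE 0.31) for Slc2a6 and -3.09 (SE 0.49) for Slc16a1. Slc2a3 was 28.2-fold higher, a log2 difference of 4.82 (SE 0.38, adjusted p = 4.49e-08), with each of its 6 neutrophil sums above each of its 6 monocyte/macrophage sums. Slc16a3 was higher by 2.12 (SE 0.21, adjusted p = 6.66e-07), again without overlap. Slc2a1 was higher by 0.70 (SE 0.20, adjusted p = 0.00785), with overlapping sums, and by 0.33 (adjusted p = 0.298) on total counts. Pfkfb4 differed by 1.95 (SE 0.35, adjusted p = 0.000214), but its direction was not shared (-0.26 within the CD45+ libraries and 2.06 within the pool). Pfkfb3 was higher by 0.87 (SE 0.26, adjusted p = 0.00969).

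Of the hypoxia genes, Egln3 was higher in neutrophils by 2.40 (SE 0.22, adjusted p = 2.22e-07), Hilpda by 1.89 (SE 0.21, adjusted p = 1.71e-06), Bnip3l by 1.08 (SE 0.21, adjusted p = 0.000347) and Ero1l by 0.94 (SE 0.19, adjusted p = 0.000517). The 6 neutrophil sums of Hilpda, from 1219 to 4369 scaled CPM, overlapped the 6 of monocytes/macrophages, from 405 to 1604. Within each day and experiment the neutrophil sum was the higher. Bnip3 (0.60, SE 0.25, adjusted p = 0.0471) and Ankrd37 (1.12, SE 0.38, adjusted p = 0.0199) were also higher, and Ndrg1 (-1.31, SE 0.27, adjusted p = 0.000696) and Mxi1 (-0.51, SE 0.20, adjusted p = 0.0352) lower. Hif1a itself differed by -0.14 (SE 0.18, adjusted p = 0.53).

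Most members lower in neutrophils were enzymes of lower glycolysis. Tpi1 differed by -1.30 (SE 0.21, adjusted p = 6.39e-05), with neutrophil levels of 235, 230.0 and 95.3 in the CD45+ libraries and 548, 119 and 95.2 in the CD11b+ pool against 820.3, 539 and 308 in the CD45+ libraries and 734, 376 and 316 in the CD11b+ pool in monocytes/macrophages, lower in all 6 pairs of day and experiment. Pgk1 (-1.08, SE 0.24, adjusted p = 0.00114), Pgam1 (-0.75, SE 0.18, adjusted p = 0.00237), Ldha (-0.66, SE 0.18, adjusted p = 0.00473), Pfkl (-0.59, SE 0.21, adjusted p = 0.0245), Gapdh (-0.55, SE 0.19, adjusted p = 0.0239) and Eno1 (-0.48, SE 0.17, adjusted p = 0.0255) were lower too. Pkm differed by -0.04 (SE 0.19, adjusted p = 0.883), Hk2 by -0.08 (SE 0.22, adjusted p = 0.788) and Hk3 by 0.72 (SE 0.31, adjusted p = 0.0544). Of the further pathway genes, 8 of 31 were higher in neutrophils, among them Slc2a6, Pygl (glycogen phosphorylase) and Bhlhe40, and 5 lower, among them Slc16a1, another monocarboxylate transporter, and Ldhb.

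The change over time was not shown to differ between the classes. In a fit of both classes with a class-by-day term, 0 of 32 members passed for day 1 to day 5, where 0.54% of 10176 genes did, and 0 for day 1 to day 3, where 0.0197% did. At an unadjusted p under 0.05 there were 6 and 2 members. The smallest adjusted p for day 1 to day 5 belonged to Hk3, whose change in neutrophils less that in monocytes/macrophages was -1.85 (SE 0.58, adjusted p = 0.153), and Pfkfb4 gave -1.37 (SE 0.72, adjusted p = 0.37). Without the CD45+ day 1 sums 7 members passed for day 1 to day 5 and 2 for day 1 to day 3, and without the pool day 1 sums 0 and 2. For 13 members the sign of that difference turned when total counts were used.

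Steady state and day 7 gave a wider view of monocytes/macrophages in the CD45+ libraries, with 530 cells with no infarct and 580 on day 7. Each is 1 library, so there is no replicate check and no test, and the exact Poisson intervals cover counting error only. The sums being compared differed in their markers: from steady state to day 1, neutrophil markers in them went from 159 to 19447 CPM and the class's own markers from 78038.5 to 10652 CPM, and the part of this in the values below was not tested. Fold differences were counted after adding 1 to the scaled CPM. From steady state to day 1, 14 of 20 glycolysis genes were at least 2-fold higher and 1, Pfkfb4, at least 2-fold lower. Of the hypoxia genes, 8 of 12 were at least 2-fold higher and 0 lower, and Egln1, at 2.12-fold without the added 1, was not among them. Over all 9781 genes with enough UMIs, 15.2% were at least 2-fold higher and 24.9% lower. Median fold differences were 4.46 for glycolysis and 6.67 for hypoxia genes.

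Pgk1 went from 9.85 (95% interval 6.90 to 13.6) scaled CPM at steady state to 382 (95% interval 355 to 412) on day 1, and stood at 26.2 (95% interval 22.3 to 30.7) on day 7. Pkm went from 277 (95% interval 260.0 to 294) to 3961 (95% interval 3871 to 4053) and was at 755 (95% interval 733 to 778) on day 7. Both ended above steady state and far below day 1. Slc2a1 was at 20.5 (95% interval 16.1 to 25.7), 179 (95% interval 161 to 199.9) and 43.3 (95% interval 38.2 to 49.0) at these times. Hif1a was at 27.6 (95% interval 22.5 to 33.6), 421 (95% interval 392 to 451) and 111 (95% interval 103 to 119.9). Egln3 had 0 UMIs at steady state (95% interval 0 to 1.01 scaled CPM) and 82 on day 1, or 44.5 (95% interval 35.4 to 55.2). With 3 UMIs (0.821 scaled CPM) set in place of 0, day 1 was 54.2-fold higher, a value that depends on that choice. Hilpda was at 83.4 (95% interval 74.3 to 93.3), 1604 (95% interval 1547 to 1663) and 489 (95% interval 471 to 507), so that its day 7 interval lay above that of steady state.

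**Figure D4:**
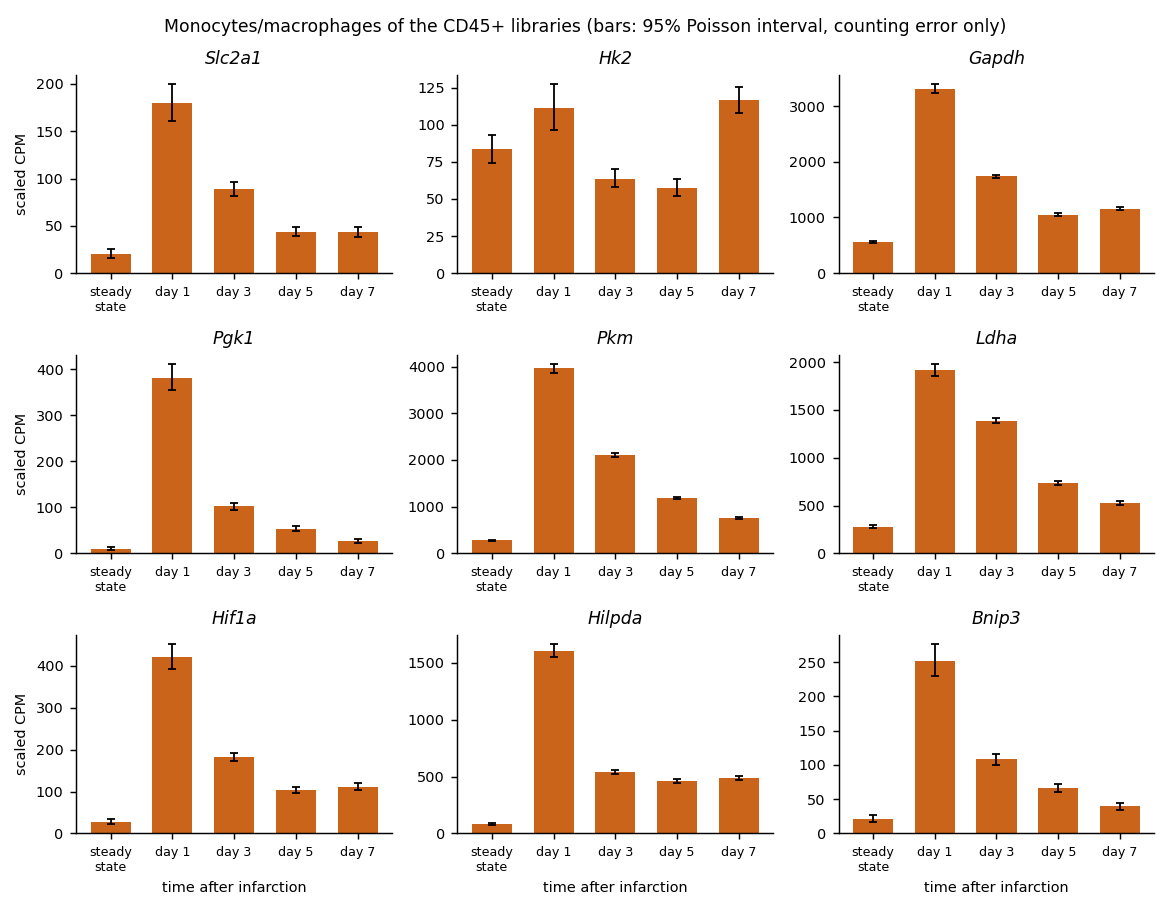
Levels of 9 members in monocytes/macrophages of the CD45+ libraries at steady state and on days 1, 3, 5 and 7 in scaled CPM (bars from 0, 1 library per bar, error bars are 95% Poisson intervals). The day 1 bar is the tallest in each panel except that of Hk2, where day 7 stands at 116 against 111 on day 1.

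Of the 32 members 23 were highest on day 1, 6 on day 3, 2 on day 7 (Hk2 and Mxi1) and 1, Pfkfb4, at steady state, and 22 were lowest at steady state. Between day 5 and day 7, 12 members had intervals that lay lower on day 7 and 4 intervals that lay higher, without overlap. Neither this count nor that of the highest time was made over all genes, so both describe the members alone. The 12 were Hk3, Pfkl, Aldoa, Tpi1, Pgk1, Pgam1, Eno1, Pkm, Ldha, Slc16a3, Bnip3 and Ero1l, with ratios of day 7 to day 5 from 0.49 (Pgk1) to 0.90 (Tpi1), and the 4 were Hk2, Gapdh, Ndrg1 and Mxi1. Counted as above, Hk2 was at least 2-fold higher on day 7 (116 (95% interval 108 to 126) against 57.5 (95% interval 51.9 to 63.6)) and Pgk1 at least 2-fold lower, where 3.21% of all genes were higher and 1.39% lower by that much. Without the added 1, Slc2a3 (2.00-fold, 16 against 9 UMIs) and Adm (2.93-fold, 13 against 5 UMIs) would also count as higher. Different clusters held the class at these times: steady-state cells lay mostly in clusters led by Hspa1a and Atf3 or by Cbr2 and Mgl2, which hold genes of resident macrophages such as Folr2, and day 7 cells mostly in the cluster led by Ms4a7 and Gpnmb. Neutrophils at steady state (7 cells) and day 7 (28 cells) were too few for values.

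In the blood and heart pool the members were read by hashtag, without conditions and without a test. Neutrophil sums held 406 to 1147 cells and monocyte/macrophage sums 277 to 737. Part of the latter were cells that clustered as dendritic when the members were left out. Slc2a3 ranged from 134 to 543 (median 407) scaled CPM in neutrophils and from 3.75 to 10.4 (median 7.95) in monocytes/macrophages. Pfkfb4 ranged from 150.5 to 318 (median 279) and from 32.8 to 51.8 (median 49.9). For both genes all 7 neutrophil sums were above all 7 monocyte/macrophage sums. Hilpda was near 0 in most hashtags, from 0 to 96.1 (median 0.978) in neutrophils and from 2.25 to 35.6 (median 3.06) in monocytes/macrophages, where the CD11b+ heart pool held 1219 to 4369 and 405 to 826. Slc2a1 ranged from 67.1 to 212 (median 85.1) and from 12.1 to 63.3 (median 14.7), and Egln3 from 18.4 to 174 (median 38.7) and from 0.979 to 13.9 (median 2.20). Adm had 0 UMIs in every neutrophil sum, and the largest of these held 4509765 UMIs.

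**Figure D5:**
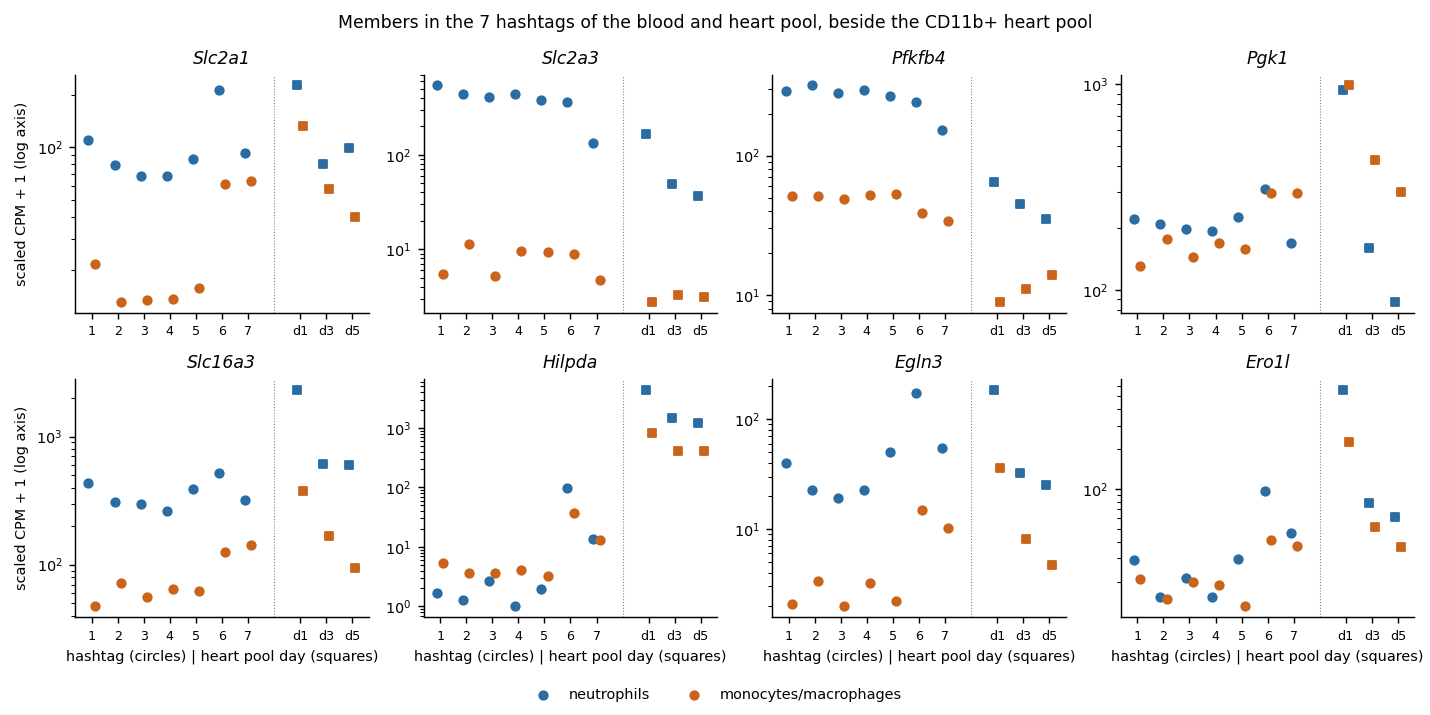
Levels of 8 members in scaled CPM for 7 blood and heart hashtags (circles) beside days 1, 3 and 5 of the CD11b+ heart pool (squares), in neutrophils and monocytes/macrophages, 1 sum per point. Hilpda lies at or below 1.62 in neutrophils of Hashtags 1 to 5, at 96.1 and 12.8 in Hashtags 6 and 7, and at 1219 or more on every day of the heart pool.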

How the data were processed

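Gene rows of the deposited matrices hold UMI counts per cell barcode, whole numbers with no normalization, from 10x libraries (version 2 for the CD45+ samples, version 3 for the CD11b+ heart pool, per the labels' protocols). Cell Ranger 3.0.2 made the matrices of both pools per the file headers; the submitters' processing notes name Cell Ranger with mm10 and GRCm38, and the version for the CD45+ libraries is not given in the sources used here.

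Barcodes needed 200 genes and no more than 10% of UMIs from mitochondrial genes (17.4% of the CD11b+ pool lay above). Hashtags were called by a 2-component mixture per hashtag; 6.28% and 12.5% of barcodes in the pools had several and 7.81% and 1.40% none, and these were left out. Scrublet marked 16 doublets in the CD45+ libraries, which were removed; doublets of 1 hashtag remain in the pools. CD45+ libraries shared at most 2 barcodes with each other, and the pools 28. Cells were clustered in scanpy 1.11.5 (2000 variable genes, 30 components, 15 neighbours, Leiden resolution 0.5, seed 0) and named from marker lists; a second naming pass was chosen after the clusters were seen.

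UMIs were summed per class, day and experiment (at least 30 cells) and tested in edgeR 4.0.16 (R 4.3.3) by its quasi-likelihood test with TMM scaling, filterByExpr and Benjamini-Hochberg adjustment over all genes tested, with terms for day and experiment. The experiment is a block because the labels give each its own sort and chemistry. DESeq2 1.42.0 was an alternative. The day fits were also run on simulated counts in which both experiments had the same change from day 1 to day 5. Those counts held no disagreement between the experiments and no shift in composition, so their outcome is not carried over to these data. Members, lists and tests were chosen with earlier results of these data known. Members named with full values were those past the threshold (at most 8 per contrast, by adjusted p) and 14 set ones; a few others were given after their values were seen. Positions are from GENCODE M21 and promoters from RefSeq.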

Additional observations from a re-analysis of the deposited data

Results flagged for a closer look

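The blood and heart pool took no part in the comparisons, because its hashtags could not be tied to conditions, yet the members were well covered there. Its neutrophils and monocytes/macrophages held 325523 UMIs of the 20 glycolysis genes and 43440 UMIs of the 12 hypoxia genes.

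On the TMM scale some members had changes of opposite sign in the 2 classes in both experiments. For Hk3, the hexokinase of myeloid cells, the log2 changes from day 1 to day 5 were -1.34 and -1.22 in neutrophils (CD45+ libraries and pool) and 1.53 and 0.41 in monocytes/macrophages, a mean difference of -2.25. Pfkfb4 changed by -3.93 and -0.89 in neutrophils and 0.83 and 0.64 in monocytes/macrophages over the same days, a mean difference of -3.14, with 0 UMIs in the CD45+ day 5 neutrophils and 6 in those of day 1. The class-by-day fit gave adjusted p = 0.153 for Hk3 and 0.37 for Pfkfb4, so neither difference passed. On total counts the neutrophil changes were 0.03 and -0.29 for Hk3 and -2.98 and 0.03 for Pfkfb4, so that the opposite sign was no longer shared by both experiments.

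From day 3 to day 5, Pfkfb4 changed by -5.78 and -0.36 in neutrophils and 0.49 and 0.32 in monocytes/macrophages, a mean difference of -3.47. Bnip3l, a mitophagy receptor, changed by -0.49 and -0.16 and 0.15 and 0.35, a mean difference of -0.57. On total counts the neutrophil changes were -5.45 and -0.05 for Pfkfb4, still below 0 in both experiments, and 0.20 and 0.17 for Bnip3l, above 0 in both as in monocytes/macrophages. These differences from day 3 to day 5 were not tested. Changes within 1 experiment were taken after adding 1 to the scaled CPM, and that constant sets the size of changes to 0 UMIs.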

How the results depend on the processing

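The number of members past the threshold was recomputed for 9 comparisons under each alternative. The share of all genes is not given for these alternatives, so the counts describe the members alone. Building the clusters without the members or changing the constant added in naming left every count as it was, and a mitochondrial limit of 20% gave 21 for the class difference in place of 20. With DESeq2's size factors in edgeR, 5 members passed in neutrophils from day 1 to day 3 and 1 in monocytes/macrophages over those days. On total counts alone the neutrophil counts were 1 (day 1 to day 3) and 5 (day 1 to day 5). DESeq2 called 17 in monocytes/macrophages from day 1 to day 3 and 1 over the later step. With no filter on low counts 8 passed in neutrophils and 13 in monocytes/macrophages from day 1 to day 3, and 1 in each class-by-day difference. Without the replicate block, that is without the term that pairs sums of 1 experiment, 0 passed in neutrophils for day 1 to day 3, 0 for day 1 to day 5, 0 in monocytes/macrophages for day 1 to day 5 and 8 in the class difference. With classes from each cell's own markers the neutrophil counts were 1 and 0. The first naming pass alone, chosen after seeing the data, removed the CD45+ day 1 sum of monocytes/macrophages and left 1 sum for that day. For the day changes of that class it was the same fit as leaving that sum out, which is part of the ranges given next. When 1 sum was left out, neutrophil counts ranged from 0 to 23 (day 1 to day 3), 5 to 27 (day 1 to day 5) and 0 to 0 (day 3 to day 5), and those of monocytes/macrophages from 0 to 21, 11 to 26 and 0 to 13. The class difference ranged from 14 to 21 and the class-by-day differences from 0 to 2 and 0 to 7; the highest for day 5 came without CD45+ day 1. Directions turned for these members, none past the threshold. Slc2a3 in monocytes/macrophages from day 1 to day 5 was 0.18 and Pfkfb3 0.11 with the first naming pass alone. In the class difference Hk2 was 0.033 with own markers and 0.059 with the first pass, Pkm 0.11 and 0.091, and Hif1a 0.0023 with the first pass. With 1 sum left out the ranges were -2.65 to 0.176 for Slc2a3 (monocytes/macrophages), -2.20 to 0.109 for Pfkfb3 (monocytes/macrophages), -2.05 to 0.058 for Slc16a3 (neutrophils), -0.27 to 0.060 for Hk2 (class difference), -0.16 to 0.103 for Pkm (class difference) and -0.20 to 0.034 for Hif1a (class difference). The cause of these shifts was not tested. Depth was lowest in CD45+ neutrophils of day 5 (41 cells), where 9 of the 31 tested members had 3 UMIs or fewer. Of these, 6 were among those that passed from day 1 to day 5. Adm was tested in the class-by-day differences alone.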

Other observations

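Some values of the blood and heart pool are given here by hashtag, in scaled CPM. The genes were chosen after their values were seen, mostly among those higher in Hashtags 6 and 7. The values carry no condition and no test. In monocytes/macrophages Slc2a1 measured 12.1 to 20.5 in Hashtags 1 to 5, 60.9 in Hashtag 6 and 63.3 in Hashtag 7. Hif1a measured 44.9 to 102 in Hashtags 1 to 5, 257 in Hashtag 6 and 229 in Hashtag 7. For Ldha the values were 146 to 176 in Hashtags 1 to 5, 409 in Hashtag 6 and 399.9 in Hashtag 7.

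In neutrophils Egln3 measured 18.4 to 49.2 in Hashtags 1 to 5, 174 in Hashtag 6 and 53.6 in Hashtag 7. Hilpda there measured 0 to 1.62 in Hashtags 1 to 5, 96.1 in Hashtag 6 and 12.8 in Hashtag 7. P4ha1 gave 8.95 to 19.2 in Hashtags 1 to 5, 75.6 in Hashtag 6 and 68.9 in Hashtag 7. Other members were lower in Hashtags 6 and 7. Ndrg1 measured 73.0 to 111 in Hashtags 1 to 5, 49.5 in Hashtag 6 and 48.5 in Hashtag 7. Slc2a3 measured 379 to 543, 360 and 134 in the same order. The summed glycolysis list was 5872 to 6719 in Hashtags 1 to 5, 7953.5 in Hashtag 6 and 4724 in Hashtag 7. The TMM factor of neutrophils in Hashtag 7 was 1.24, against 0.796 to 0.873 in the other 6, so its levels stood higher beside theirs on plain CPM. The glycolysis sum of Hashtag 7 was 5858 on plain CPM, above the 4807 to 5755 of Hashtags 1 to 5, so that order turned with the scale. The neutrophil cluster led by Cxcl2 and Basp1, built without the members, held 230 cells of Hashtag 6 and 239 of Hashtag 7 among its 489, with glycolysis sums of 9777 and 5913.5 CPM and hypoxia sums of 2048 and 1064 CPM. In the other neutrophil clusters the hypoxia sums of all 7 hashtags lay between 568 and 985 CPM.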
